A study of Mus musculus with 5 samples.

Results

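H3K27ac, the acetylated histone mark of active promoters and enhancers, was examined at 10 genes of the transforming growth factor β (TGF-β) pathway in Treg cells of the large intestine. The genes were Tgfb1, Lrrc32 and Itgb8 on the ligand side, the receptor genes Tgfbr1 and Tgfbr2, the signal transducers Smad2 and Smad3, and the inhibitors Smad7, Ski and Skil. They were chosen by name from the 21951 protein-coding genes of GENCODE M21 on mm10. The locus of a gene was its annotated span extended by 20 kb on each side, and every peak overlapping that window belonged to it. The 10 windows held 250 of the 124158 peaks in the table.

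Treg cells gated as CD3+CD4+Foxp3-YFP+ were sorted from 2-week-old C57BL/6 mice, and 60000 cells entered each CUT&Tag reaction, in which a transposase tethered to the mark by an antibody cuts and tags the DNA beside it. Ctrl mice carried Foxp3Cre with Setd2flox/+ and KO mice carried Foxp3Cre with Setd2flox/flox, where Setd2 encodes the histone H3K36 methyltransferase. Both genotypes therefore carried the Foxp3-driven Cre-YFP, and Ctrl cells had 1 floxed Setd2 allele of their own. Each group held 2 libraries from cells of pooled females and males, and per the study's methods each replicate was pooled from 3 to 5 mice, with Ctrl and KO mice being littermates. An IgG library pooled from both genotypes was listed but not analysed here.

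TGF-β1 is made as a latent dimer. GARP, the product of Lrrc32, holds latent TGF-β1 on the Treg cell surface, and the integrin αvβ8, whose β chain is encoded by Itgb8, releases the active ligand. The ligand joins the type II receptor (Tgfbr2) with the type I receptor (Tgfbr1), which phosphorylates SMAD2 and SMAD3. These enter the nucleus with SMAD4, while SMAD7 blocks the receptor and the related proteins SKI and SnoN (Skil) repress transcription at SMAD-bound genes. In the gut, TGF-β is known for inducing Foxp3 and for supporting peripheral Treg cells.

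Counts in peaks totalled 2395002 and 3630447 for Ctrl and 3007444 and 4712473 for KO. Values are CPM, counts scaled to the TMM-adjusted total of the library, and 1 count was worth between 0.240 and 0.452 CPM. At the targeted gene Setd2, the locus measured 130 and 179 CPM in Ctrl and 101 and 138 CPM in KO, so that the genotypes overlapped, and a count of H3K27ac does not measure the floxed deletion. The defining Treg and T cell markers (Foxp3, Il2ra, Ctla4, Ikzf2, Cd3e and Cd4) had promoter peaks in 6 of 6 cases, with a summed level of 712 to 795 CPM in Ctrl and 813 to 1002 CPM in KO. Promoter sums of the other lists were 13.1 to 24.4 CPM in Ctrl and 18.2 to 21.2 CPM in KO for B cells, with 2 of 3 markers detected and Ms4a1 at 0. They were 1.19 to 1.36 and 1.12 to 4.31 CPM for myeloid cells, with 1 of 3 detected and Lyz2 and Csf1r at 0, and 6.25 to 11.3 and 8.57 to 9.34 CPM for CD8 T and NK cells, with 1 of 3 detected and Cd8a and Ncr1 at 0. Epithelial markers (3 of 3) summed to 12.2 to 14.9 and 10.3 to 13.4 CPM, and stromal markers (2 of 3, Col1a1 at 0) to 78.7 to 102 and 85.3 to 107 CPM. Of the stromal sum, Pecam1 made up 74.7 to 102 CPM in Ctrl and 85.0 to 107 CPM in KO, and Pdgfra at most 4.07 CPM. The stromal sum thus rests almost wholly on Pecam1, and which cells gave the Pecam1 signal was not tested. In bulk libraries, fewer cells carrying a mark and less of the mark per cell cannot be told apart.

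The 2 libraries numbered 1 and the 2 numbered 2 stood apart from each other in both genotypes. Over 16106 loci, 27.7% had both number 1 libraries above both number 2 libraries and 30.0% had the reverse. Each member is therefore given in all 4 libraries. The p-values rest on the spread between these libraries only, and in edgeR the spread of a locus is drawn toward a trend over all loci. For single peaks the edgeR p-values rest on such a trend alone, not on the spread of the peak itself.

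All 10 TGF-β pathway loci carried H3K27ac peaks, and their levels per kb of window ran from the 30.5th to the 98.9th percentile of tested loci. Tgfb1 and Ski led with means of 8.49 and 8.32 CPM per kb, the 98.9th and 98.8th percentiles of all tested loci. The level of Tgfb1 includes many peaks nearest to other genes, and those nearest to its own start gave 2.38 CPM per kb of the same window, below the 2.78 CPM per kb of Skil counted in that way, while Ski kept 7.96 CPM per kb. Lrrc32 (5.67 CPM per kb), Smad7 (5.37), Smad3 (5.32) and Tgfbr2 (4.72) lay at percentiles 94.0 to 96.3. Skil stood at 2.96 CPM per kb, the 84.7th percentile. Below it, Itgb8 and Tgfbr1 had 1.19 and 1.09 CPM per kb, at percentiles 57.3 and 54.3. Smad2 was lowest at 0.489 CPM per kb, the 30.5th percentile. Neighbours in this order overlapped over the 4 libraries, except at 3 steps: Tgfbr2 was above Skil, Skil above Itgb8, and Tgfbr1 above Smad2 in every library. Among the paired components, the type II receptor locus thus carried more of the mark per kb than the type I receptor locus, and the Smad3 locus more than the Smad2 locus, in all 4 libraries.

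**Figure D1:**
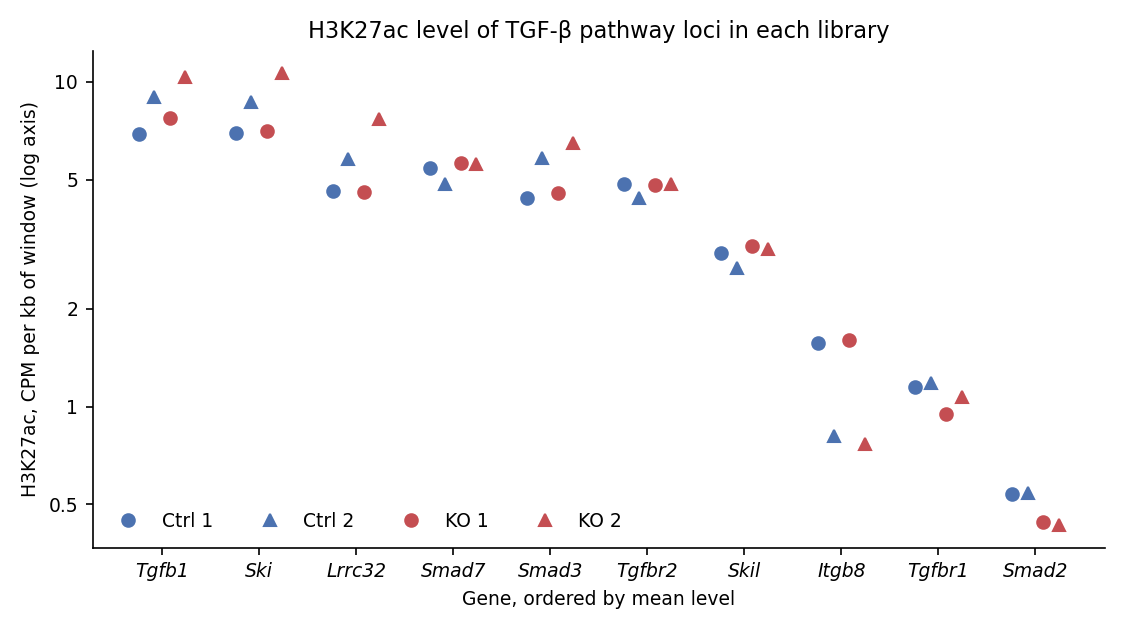
H3K27ac of the 10 loci in CPM per kb of window (log axis), 1 point per library, with Ctrl in blue, KO in red, circles for number 1 and triangles for number 2. Tgfb1, with the peaks of its neighbours included, and Ski reach the highest levels, Smad2 lies lowest at 0.432 to 0.544 CPM per kb, and the circles and triangles of Itgb8 stand apart in both genotypes.

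The mark was laid out differently along these genes. Peaks covered 58.1% of the Ski window and 56.9% of the Tgfb1 window, 41.7% to 43.7% of those of Smad3, Tgfbr2, Smad7 and Lrrc32, 31.4% for Skil, and only 13.1%, 12.3% and 6.71% for Tgfbr1, Itgb8 and Smad2. Of the 250 peaks, 14 (5.60%) were 5 kb or wider, against 1.02% of all peaks. The window of Smad3 held 5 of these broad peaks, that of Ski 4, that of Tgfb1 3, and those of Lrrc32 and Smad7 1 each. Those of the Tgfb1 window include the peaks across the starts of B9d2 and Ccdc97, and its covered share likewise includes peaks of neighbouring genes. The windows of Tgfbr1, Tgfbr2, Smad2, Skil and Itgb8 held 0. Promoter peaks, within 3 kb of a start site of the gene, took 56.6% ± 0.516 of the locus counts of Lrrc32 in Ctrl but 11.1% ± 2.40 of those of Smad3 and 17.2% ± 2.55 of those of Tgfbr2 (SD, n = 2 each).

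**Figure D2:**
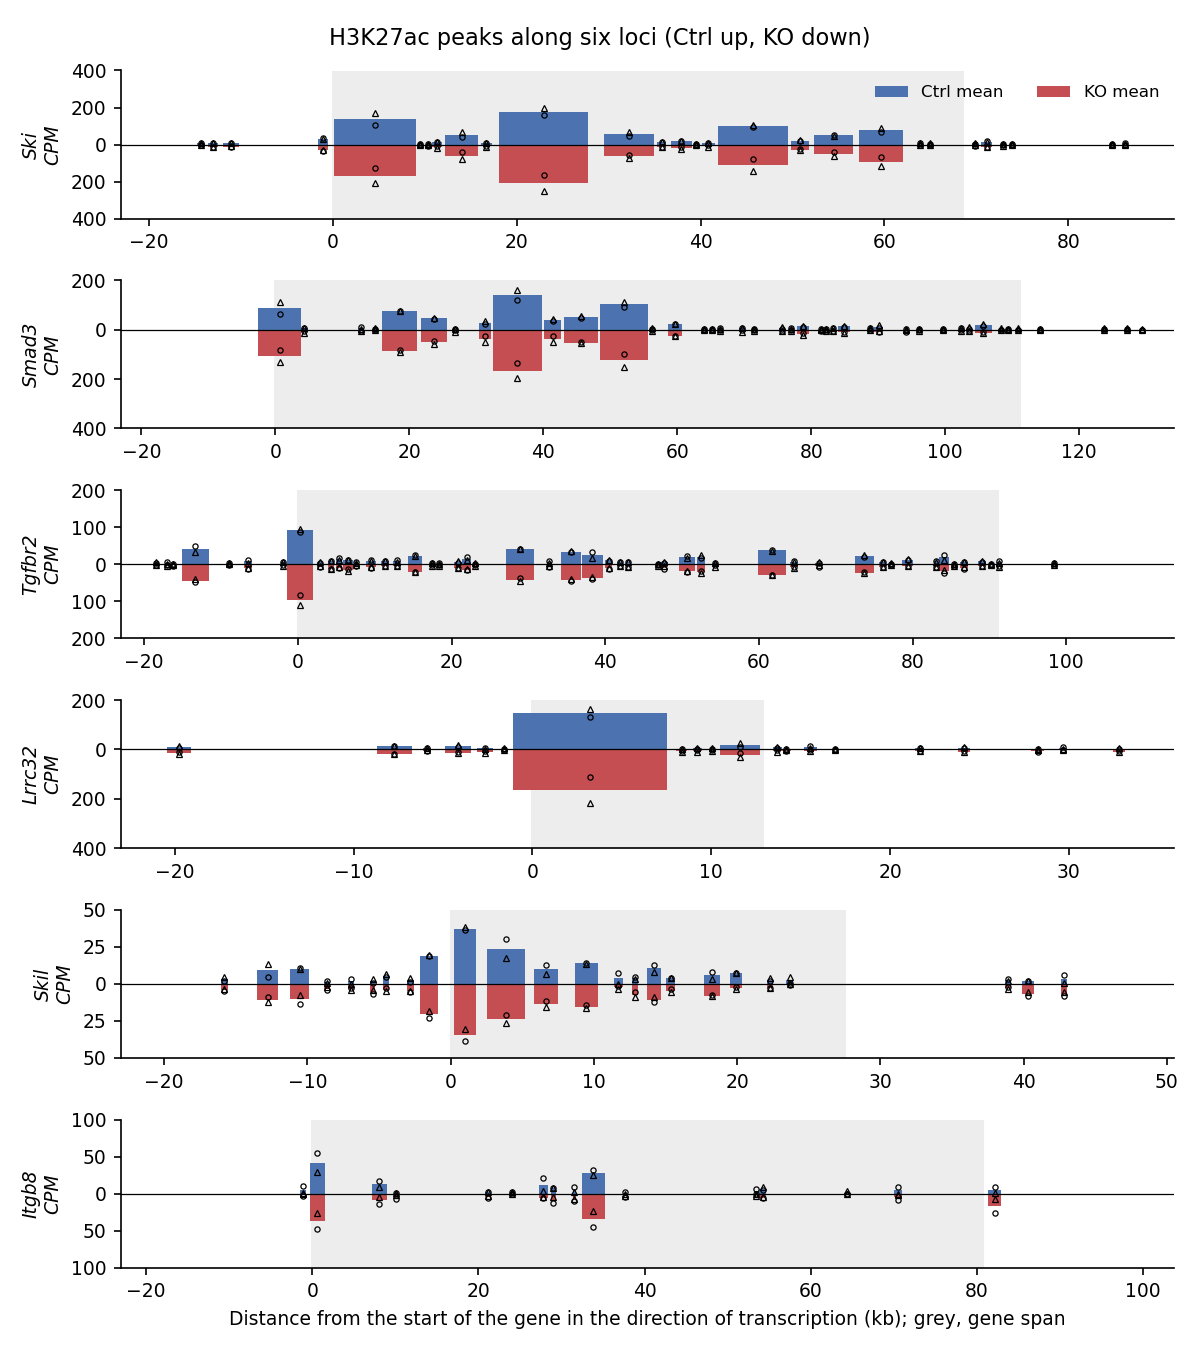
Peaks of 6 loci by distance from the gene start in kb along transcription, with the gene span in grey. Bars show the mean CPM of a peak, Ctrl upward in blue and KO downward in red, bar width is peak width, and symbols are single libraries (circles, number 1; triangles, number 2). Ski and Smad3 carry broad intronic peaks, Lrrc32 has 1 dominant peak across its start, and Tgfbr2 has a high start peak with many lower ones.

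On the ligand side, the locus of Tgfb1, the gene of the main TGF-β ligand of T cells (ENSMUSG00000002603.15, chr7:25687002-25705077, plus strand), measured 400 and 521 CPM in Ctrl and 451 and 600 CPM in KO. The genotypes overlapped, with both number 2 libraries above both number 1 libraries. This window also holds start sites of Tmem91, B9d2 and Ccdc97, and 10 of its 15 peaks, with 71.9% of its signal, lay nearest to the start of another gene. The highest peak of the window (chr7:25679374-25685133, 134 CPM on average) covered the start of B9d2 and counted as a Tgfb1 promoter peak through its distance. The peak across the start of Tgfb1 itself (chr7:25685910-25691178) measured 98.6 and 106 CPM in Ctrl and 106 and 141 CPM in KO. Its level overlapped between genotypes.

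Lrrc32 (ENSMUSG00000090958.2, chr7:98489283-98502181, plus strand) measured 245 and 307 CPM in Ctrl and 243 and 406 CPM in KO. KO 1 was lowest and KO 2 highest of the 4 libraries. A single peak of 8611 bp across its start (chr7:98488225-98496835) held 52.0% of the locus signal, with 131 and 165 CPM in Ctrl and 111 and 219 CPM in KO. That peak had a log2 fold change of 0.16 (SE 0.26), which was 0.55 without KO 1 and −0.45 without KO 2.

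Itgb8 (ENSMUSG00000025321.14, chr12:119158022-119238802, minus strand) measured 190 and 98.2 CPM in Ctrl and 194 and 93.0 CPM in KO. The means of the genotypes, 144 ± 64.6 and 143 ± 71.3 CPM (SD, n = 2 each), were nearly the same, while the number 1 libraries were far above the number 2 libraries. Its start peak (chr12:119237292-119239086) followed this order with 55.2 and 28.9 CPM in Ctrl and 47.3 and 25.4 CPM in KO. Among its 12 tested peaks, 7 had both number 1 libraries above both number 2 libraries and 0 the reverse. The share of all tested peaks in this order was not counted.

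For the ligand side, the start-site windows of Tgfb1 and Itgb8 are shown because they lie on opposite sides of the difference between library numbers described further on. They run from 250 bases before to 50 bases after a RefSeq start on GRCm38.p6, the assembly of mm10, which gave such windows for 6 of the 10 genes. Capitals mark the short SMAD box CAGAC, read on both strands.
Tgfb1 (chr7:25686752-25687051, plus strand): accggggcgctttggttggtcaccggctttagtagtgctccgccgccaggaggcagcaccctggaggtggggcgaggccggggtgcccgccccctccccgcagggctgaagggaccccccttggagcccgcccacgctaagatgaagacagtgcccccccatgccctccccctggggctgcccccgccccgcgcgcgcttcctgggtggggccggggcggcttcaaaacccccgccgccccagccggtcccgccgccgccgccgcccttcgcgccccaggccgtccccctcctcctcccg
Itgb8 (chr12:119238227-119238526, minus strand): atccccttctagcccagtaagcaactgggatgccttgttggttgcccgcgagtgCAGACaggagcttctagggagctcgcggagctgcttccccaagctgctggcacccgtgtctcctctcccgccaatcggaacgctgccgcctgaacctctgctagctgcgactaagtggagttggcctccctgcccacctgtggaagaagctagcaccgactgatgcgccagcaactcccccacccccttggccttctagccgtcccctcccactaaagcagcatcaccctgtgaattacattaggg
Both lay inside a peak. The Tgfb1 window was 77.0% GC with 30 CpG and no match, and the Itgb8 window was 60.7% GC with 13 CpG and 1 CAGAC. Over all 32851 promoter windows the median was 52.7% GC and 7 CpG, and 49.6% held a CAGAC, so the Itgb8 match is one that many windows have.

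Among the receptors, Tgfbr2 (ENSMUSG00000032440.13, chr9:116084293-116175360, minus strand) measured 636 and 574 CPM in Ctrl and 632 and 633 CPM in KO. Both KO libraries lay within the Ctrl range. It had 49 peaks, the most of the 10 loci, and its highest, across the start (chr9:116173364-116176768), held only 15.3% of the signal, with 88.2 and 95.8 CPM in Ctrl and 83.8 and 110 CPM in KO. The next peaks in level lay 13.4 kb upstream (42.8 CPM on average) and in the intron 28.9 kb into the gene (41.4 CPM).

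Tgfbr1 (ENSMUSG00000007613.15, chr4:47353222-47414931, plus strand) measured 117 and 120 CPM in Ctrl and 96.5 and 109 CPM in KO. Both KO libraries lay below both Ctrl libraries. The same held at its start peak (chr4:47351383-47354731), with 50.2 and 43.5 CPM in Ctrl and 33.9 and 34.7 CPM in KO, a log2 fold change of −0.44 (SE 0.32) with an edgeR unadjusted p of 0.168 and adjusted p of 0.998. This peak was 36.7% of the locus signal.

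The receptor-regulated SMAD genes differed in level by an order of magnitude per kb. Smad3 (ENSMUSG00000032402.12, chr9:63646767-63757994, minus strand) measured 662 and 884 CPM in Ctrl and 689 and 980 CPM in KO. The genotypes overlapped, and the number 2 libraries were the higher ones in each. Its highest peak was intronic (chr9:63718208-63725502, 36.1 kb into the gene) and measured 119 and 160 CPM in Ctrl and 135 and 197 CPM in KO, above the start peak (chr9:63754191-63760510) at 62.0 and 113 CPM in Ctrl and 80.5 and 133 CPM in KO. A further 20 of its 41 peaks, with 13.3% of the signal, lay nearest to the start of Aagab.

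The centre of this intronic peak is shown because it is the highest peak of the Smad3 locus and holds matches to both a SMAD box and the AP-1 motif TGANTCA. Capitals mark them, and they stand 1 base apart.
Smad3 intronic peak (chr9:63721706-63722005, plus strand, mm10): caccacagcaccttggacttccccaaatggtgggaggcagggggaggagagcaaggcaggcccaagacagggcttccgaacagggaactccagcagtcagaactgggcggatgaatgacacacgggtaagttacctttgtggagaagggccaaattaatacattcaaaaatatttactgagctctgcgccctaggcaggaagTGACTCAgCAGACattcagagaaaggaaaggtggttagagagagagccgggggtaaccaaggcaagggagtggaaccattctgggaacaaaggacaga
Among the 74550 tested peaks cut to the same 300 bases, 56.2% held a CAGAC and 9.56% a TGANTCA on either strand. The palindrome GTCTAGAC, held by 0.310% of the peaks and 0.213% of the promoter windows, was in none of the sequences examined for the members.

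Smad2 (ENSMUSG00000024563.16, chr18:76241580-76310963, plus strand) measured 58.8 and 59.5 CPM in Ctrl and 48.4 and 47.2 CPM in KO. KO lay below Ctrl in both libraries, with little spread within either genotype. The locus had the fewest counts of the 10 (Ctrl 130 and 200, KO 130 and 197), and only 8 of its 14 peaks could be tested singly. Its highest peak (chr18:76240329-76241627), at the start, did not follow the order of the locus, with 17.2 and 7.14 CPM in Ctrl and 11.2 and 13.4 CPM in KO.

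Of the inhibitors, Ski (ENSMUSG00000029050.15, chr4:155154075-155222592, minus strand) measured 754 and 941 CPM in Ctrl and 765 and 1152 CPM in KO. The number 2 libraries were the higher ones in both genotypes, and the genotypes overlapped. Its highest peak was intronic (chr4:155194835-155204473, 9639 bp, 22.9 kb into the gene), with 159 and 196 CPM in Ctrl and 167 and 253 CPM in KO. No peak covered the gene start: one peak came within 0.139 kb of an annotated start from inside the gene, and the next began 0.553 kb upstream. The inner peak (chr4:155213585-155222396) measured 103 and 170 CPM in Ctrl and 128 and 208 CPM in KO. The outer peak (chr4:155223145-155224162) measured 34.4 and 29.2 CPM in Ctrl and 33.9 and 27.3 CPM in KO.

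The RefSeq start window of Ski is shown because it falls wholly into the gap between these peaks. It holds none of the motifs searched.
Ski (chr4:155222486-155222785, minus strand): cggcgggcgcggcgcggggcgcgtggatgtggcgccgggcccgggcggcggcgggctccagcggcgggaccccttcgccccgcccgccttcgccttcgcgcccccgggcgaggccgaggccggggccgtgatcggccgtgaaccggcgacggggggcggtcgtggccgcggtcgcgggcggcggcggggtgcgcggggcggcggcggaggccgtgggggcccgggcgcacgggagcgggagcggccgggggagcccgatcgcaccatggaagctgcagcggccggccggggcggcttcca
It was 85.3% GC with 59 CpG, at the 99.9th percentile of GC content over all promoter windows. Whether base composition has a part in the gap was not tested.

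Smad7 (ENSMUSG00000025880.11, chr18:75367529-75395935, plus strand), a direct target and feedback inhibitor of TGF-β signalling, measured 370 and 332 CPM in Ctrl and 385 and 382 CPM in KO. Both KO libraries exceeded both Ctrl libraries. No peak covered the gene start, and the nearest upstream peak ended 0.307 kb before it. The highest peak (chr18:75368185-75375762) began inside the gene and covered a further annotated start. It measured 87.8 and 86.9 CPM in Ctrl and 81.6 and 94.2 CPM in KO. The next one, in the intron (chr18:75376052-75380574), had 77.4 and 79.8 CPM in Ctrl and 86.4 and 97.0 CPM in KO.

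Skil (ENSMUSG00000027660.16, chr3:31095058-31122577, plus strand) measured 200 and 181 CPM in Ctrl and 211 and 206 CPM in KO. Here too both KO libraries exceeded both Ctrl libraries, by a small margin. Its highest peak (chr3:31095290-31096810) lay just inside the gene, 0.023 kb from the nearest annotated start. It measured 36.2 and 38.7 CPM in Ctrl and 38.8 and 30.7 CPM in KO, so the order of the locus was not that of this peak.

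To ask whether loss of Setd2 went with a change of H3K27ac at these genes, the genotypes were compared in edgeR with its quasi-likelihood test over all 16106 tested loci, with Benjamini-Hochberg adjustment. Of the 10 loci, 0 passed an adjusted p of 0.05, against a background of 0.00% of all loci, and all 10 had an adjusted p of 1. At an unadjusted p under 0.05 there were also 0, against 2.54% of all loci. DESeq2 called 0 member loci, and 0 of them had an unadjusted p under 0.05 there. The smallest unadjusted edgeR p was 0.271, for Smad2.

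Log2 fold changes ran from −0.31 (SE 0.26) for Smad2 and −0.21 (SE 0.23) for Tgfbr1 to 0.19 (SE 0.24) for Tgfb1 and 0.23 (SE 0.28) for Lrrc32. Between them lay Itgb8 at −0.0051 (SE 0.39), Tgfbr2 at 0.064 (SE 0.20), Smad3 at 0.11 (SE 0.24), Smad7 at 0.13 (SE 0.21), Skil at 0.13 (SE 0.22) and Ski at 0.18 (SE 0.24). The 95% intervals from the fit reached from −0.90 at the lowest (Smad2) to 0.88 at the highest (Itgb8), so differences inside these intervals could not be told from none with these libraries. The interval of Tgfbr2 was the narrowest, from −0.38 to 0.51. For Itgb8, the own variance of the locus was 6.08, against 0.767 from the trend over loci of its abundance.

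In all, 7 of 10 members had a positive log2 fold change and 3 a negative one, but with a loess offset on abundance 5 of the 7 were negative. Their median log2 fold change was 0.12 against −0.0058 over all loci. Both KO libraries exceeded both Ctrl libraries at 2 members, Smad7 and Skil, against 11.9% of all loci, and lay below them at 2, Tgfbr1 and Smad2, against 16.8%. The differences moved with the level of a locus. Tgfb1, Lrrc32, Tgfbr2, Smad3, Smad7 and Ski were all in the highest decile of loci by CPM, where 82.4% of loci had a higher KO mean and the median log2 fold change was 0.18. Smad2, in the fifth decile, stood where 38.8% had a higher KO mean. Under a loess offset that removes such a trend, the median of the members was −0.060, the values of Tgfb1, Tgfbr2, Smad3, Smad7 and Ski lay between −0.15 and −0.0022, and that of Itgb8 was 0.0095. Without KO 2 the median was −0.12, and Tgfb1, Lrrc32, Smad3 and Ski had values below 0.

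**Figure D3:**
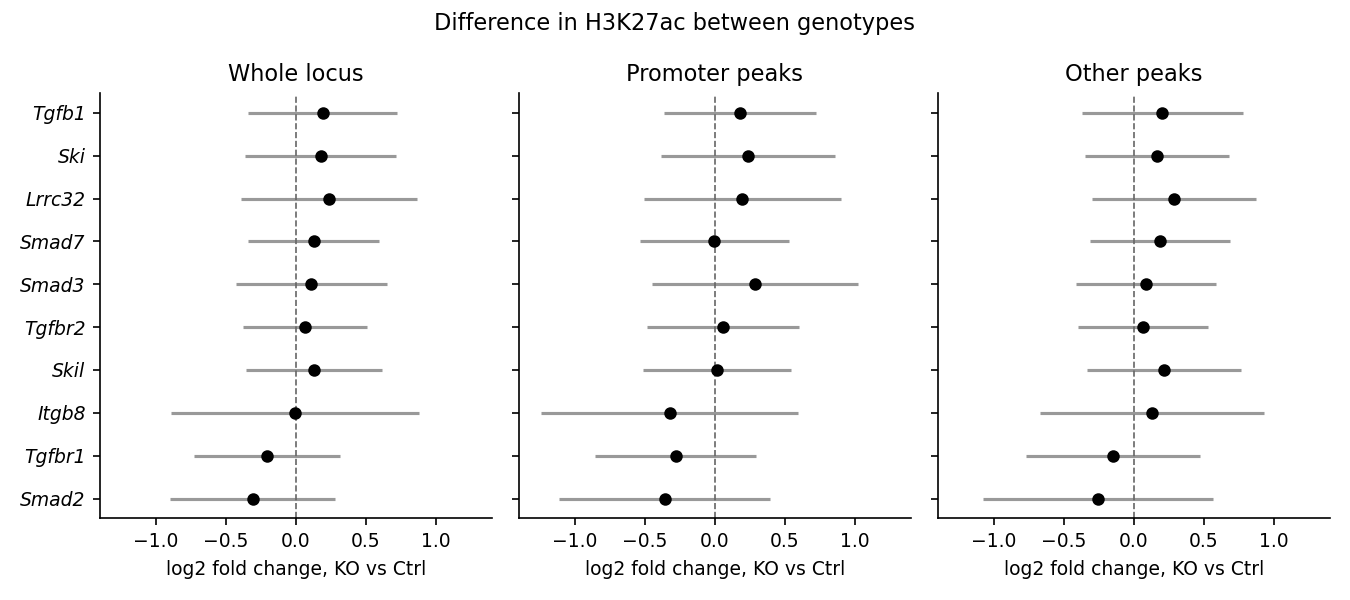
Log2 fold change of KO against Ctrl (points) with 95% intervals of the edgeR fit (grey lines) for the whole locus, the promoter peaks and the other peaks of the 10 genes, ordered by level. Every interval includes 0.

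Promoters and the remaining peaks were also tested apart. Over promoters, 0 of 10 members passed an adjusted p of 0.05 in edgeR (background 0.00%; lowest adjusted p 0.999) and 0 an unadjusted p of 0.05 (background 1.29%), with 0 by DESeq2 at either limit. Both KO libraries lay below both Ctrl libraries at 1 promoter, that of Tgfbr1 (background 8.93%), and above at 0 (background 17.8%). Tgfbr1 promoter peaks summed to 54.3 and 49.1 CPM in Ctrl and 42.9 and 42.2 CPM in KO, a log2 fold change of −0.28 (SE 0.26). The members' median was 0.036, against 0.067 over all promoters.

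Over the other peaks of each window, again 0 of 10 passed an adjusted p of 0.05 (background 0.00%; lowest adjusted p 0.998) or an unadjusted p of 0.05 (background 5.16%), with 0 by DESeq2 at either limit. Smad7 and Skil were above in both KO libraries (2 of 10, background 11.0%), and 0 members were below (background 21.5%). For Smad7 these peaks summed to 252 and 231 CPM in Ctrl and 282 and 266 CPM in KO, a log2 fold change of 0.18 (SE 0.23). For Skil they summed to 114 and 101 CPM in Ctrl and 123 and 127 CPM in KO, a log2 fold change of 0.22 (SE 0.26). The Skil sum includes peaks of the 20 kb flanks, 3 of them nearest to the start of Cldn11. With no extension of the gene span the whole Skil locus was at −0.012. The promoter sums of these inhibitors had log2 fold changes of −0.0048 (SE 0.24) for Smad7 and 0.014 (SE 0.24) for Skil. The difference between promoter and other peaks was not tested. The median over the members was 0.15, against −0.048 over all genes, with no allowance for level. For whole loci, where differences moved with level, the loess offset took the members' median to −0.060.

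Single peaks were examined in the same way. Of the 250 peaks in the windows, 202 had at least 10 counts in at least 2 libraries, the limit for testing. None of these was called in edgeR (0 at an adjusted p under 0.05, background 0.00134%; lowest adjusted p 0.998). At an unadjusted p under 0.05 there were 8, 4 higher and 4 lower in KO, out of 202, against a background of 4.24% of all tested peaks, and 0 by DESeq2. Both KO libraries exceeded both Ctrl libraries at 32 peaks (background 16.9%) and lay below them at 25 (background 16.4%).

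The peaks at an unadjusted p under 0.05 in edgeR had means from 4.31 to 10.6 CPM, at percentiles 33.5 to 71.5 of tested peaks. All were lower than the highest peak of any member window. A peak overlapping an exon of Tgfbr1, 57.9 kb into the gene (chr4:47410418-47411787), had 14.0 and 9.82 CPM in Ctrl and 1.49 and 6.95 CPM in KO, resting on 31, 33, 4 and 29 counts (Ctrl 1, Ctrl 2, KO 1, KO 2). Its log2 fold change was −1.41 (SE 0.58, edgeR adjusted p 0.998), and without KO 1 it was −0.78. An intronic peak of Tgfbr2 (chr9:116095325-116096699) had 11.3 and 13.7 CPM in Ctrl and 5.96 and 5.51 CPM in KO, with a log2 fold change of −1.13 (SE 0.55). This was the most even of the differences, and it stayed between −1.26 and −0.97 whichever library was left out. A peak overlapping an exon of Tgfb1 (chr7:25693993-25694567) had 9.05 and 6.55 CPM in Ctrl and 0.745 and 4.07 CPM in KO, the latter from 2 and 17 counts. Its log2 fold change of −1.58 (SE 0.74) was −0.94 without KO 1 and −3.33 without KO 2.

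In the other direction, a peak 13.0 kb upstream of Ski (chr4:155235066-155236098) had 6.79 and 6.25 CPM in Ctrl and 11.2 and 15.8 CPM in KO, with a log2 fold change of 1.06 (SE 0.53). All 4 libraries kept its sign when left out in turn, with values from 0.75 to 1.26. A peak 40.3 kb from the start of Skil, beyond its 3′ end and nearest to the start of Cldn11 (chr3:31134953-31135780), rested on 4, 7, 21 and 23 counts in Ctrl 1, Ctrl 2, KO 1 and KO 2. This gave 1.81 and 2.08 CPM in Ctrl and 7.82 and 5.51 CPM in KO, a log2 fold change of 1.74 (SE 0.83).

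The centre of this Skil flank peak is shown because it holds 4 matches to CAGAC on either strand and 1 to TGANTCA, of which 1 CAGAC overlaps the AP-1 match.
Skil flank peak (chr3:31135217-31135516, plus strand, mm10): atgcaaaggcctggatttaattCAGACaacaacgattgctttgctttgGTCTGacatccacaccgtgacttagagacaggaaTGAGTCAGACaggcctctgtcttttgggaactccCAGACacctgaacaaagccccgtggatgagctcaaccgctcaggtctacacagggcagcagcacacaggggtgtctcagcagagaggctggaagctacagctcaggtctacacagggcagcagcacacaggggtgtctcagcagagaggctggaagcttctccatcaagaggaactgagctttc

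A further 3 of the 8 peaks had overlapping genotypes and were picked out after their values were seen. The one with the lowest p lay beyond the 3′ end of Itgb8 (chr12:119155878-119157434) and measured 9.05 and 0.893 CPM in Ctrl and 25.3 and 7.19 CPM in KO, resting on 20, 3, 68 and 30 counts (Ctrl 1, Ctrl 2, KO 1, KO 2). KO was above Ctrl within each library number, while KO 2 was below Ctrl 1. Its log2 fold change was 1.79 (SE 0.55, edgeR unadjusted p 0.0011, adjusted p 0.998), its own variance was 8.77 against 0.977 from the trend, and the DESeq2 unadjusted p was 0.260. Leaving out 1 library at a time moved it between 0.58 and 4.09. In an intron of Itgb8 (chr12:119210434-119211550) 21.3 and 3.57 CPM in Ctrl stood against 5.59 and 4.55 CPM in KO, a log2 fold change of −1.25 (SE 0.57) that was 0.48 without Ctrl 1. Upstream of Lrrc32 (chr7:98486188-98487051) 6.79 and 2.98 CPM in Ctrl stood against 6.71 and 16.0 CPM in KO, a log2 fold change of 1.29 (SE 0.58) that was 0.47 without KO 2.

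The centre of the Itgb8 3′ flank peak is shown because that peak had the lowest p of the 202. None of the 3 motifs occurs in it, and it was 40.3% GC.
Itgb8 flank peak (chr12:119156507-119156806, plus strand, mm10): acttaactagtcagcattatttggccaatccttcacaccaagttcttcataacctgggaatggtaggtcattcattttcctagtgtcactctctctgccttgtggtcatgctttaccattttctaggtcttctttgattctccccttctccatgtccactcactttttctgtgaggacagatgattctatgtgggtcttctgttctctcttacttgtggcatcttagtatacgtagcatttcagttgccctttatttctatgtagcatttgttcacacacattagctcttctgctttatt

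The libraries of one genotype often differed more than the genotypes did, and in a gene-specific way. For Itgb8, number 2 minus number 1 was −0.95 on the log2 scale in Ctrl and −1.06 in KO, at the 5.77th percentile of all loci. In both genotypes Lrrc32 (0.33 in Ctrl and 0.74 in KO), Ski (0.32 and 0.59), Smad3 (0.42 and 0.51) and Tgfb1 (0.38 and 0.41) went the other way. Tgfbr1 did so too, by less (0.037 in Ctrl and 0.18 in KO). Of the 31 tested Smad3 peaks, 14 had both number 2 libraries above both number 1 libraries and 0 the reverse. The shares over all tested peaks were not counted, and over whole loci they were 30.0% and 27.7%. The others, Tgfbr2, Smad2, Smad7 and Skil, had differences between −0.16 and 0.017. Over all loci the middle 90% spanned −1.09 to 0.88 in Ctrl and −1.32 to 0.74 in KO.

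**Figure D4:**
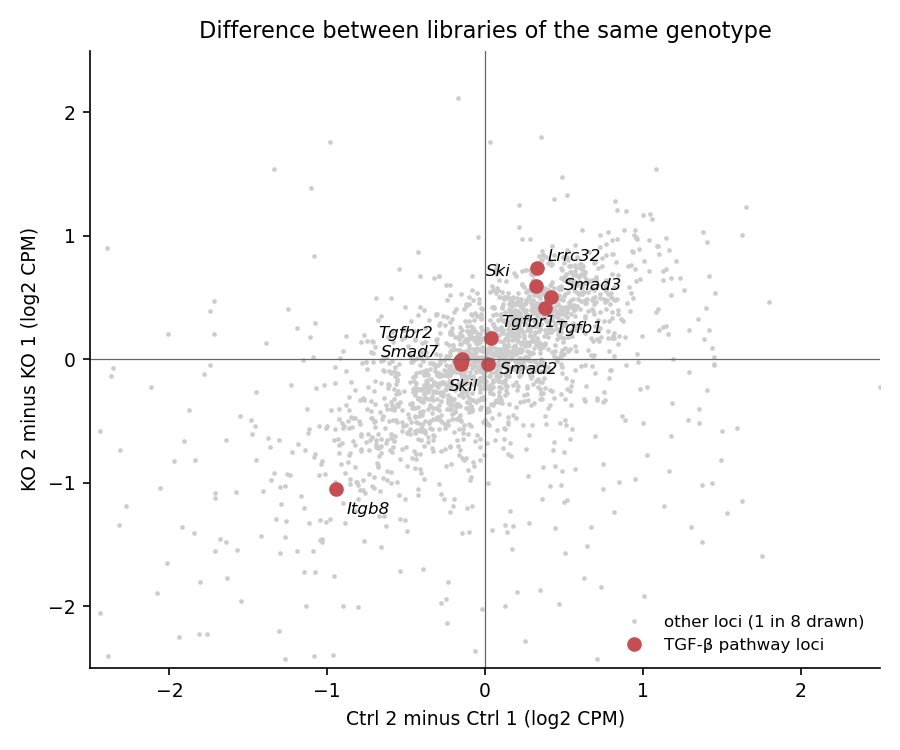
Library number 2 minus library number 1 in log2 CPM, Ctrl on the horizontal and KO on the vertical axis, for the 10 loci (red) and for 1 in 8 of all loci (grey, 23 of 2014 points lie beyond the axes). Itgb8 lies at the lower left, at −0.95 and −1.06, and Tgfb1, Lrrc32, Smad3 and Ski lie at the upper right.

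Base composition differed among these loci as well. Weighted by counts, peaks of Itgb8 had 44.9% GC, those of Smad3 51.3%, Ski 51.9%, Tgfb1 53.2% and Lrrc32 54.1%, against 49.8% over all tested peaks. Smad2 had 47.2%, Tgfbr1 and Tgfbr2 48.3% each, and Smad7 52.2%. Skil, at 45.4%, had a GC content close to that of Itgb8 with differences between library numbers of −0.15 in Ctrl and −0.036 in KO. Smad7 was close to Ski in GC content, with differences of −0.16 in Ctrl and −0.011 in KO. Over all tested peaks, number 2 minus number 1 was −0.16 in Ctrl and −0.17 in KO in the lowest decile by GC, and rose over the deciles to 0.17 and 0.16 in the ninth, but it was −0.046 and 0.057 in the decile of highest GC. What part GC content has in the values of the members was not tested.

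Beyond the 10 genes, a list of 50 other genes of the pathway was followed, of which 49 were tested and Thbs1 was not. In edgeR, 0 of the 49 passed an adjusted p of 0.05 (adjusted p of 1 for each one named here), 1 had an unadjusted p under 0.05, and DESeq2 made no call at any locus. Over all loci these shares were 0.00% and 2.54%, so 1 of 49 is near the background. The list had 30 loci with a positive and 19 with a negative log2 fold change, where 49.3% of all loci were positive, and a median of 0.044. Both KO libraries were above both Ctrl libraries at 10 of the 49 and below at 6, against 11.9% and 16.8% of all loci.

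The locus at an unadjusted p under 0.05 was Usp15, which encodes a deubiquitinase acting on the TGF-β receptor complex. It measured 124 and 131 CPM in Ctrl and 91.7 and 78.4 CPM in KO, a log2 fold change of −0.59 (SE 0.24) with an unadjusted p of 0.0345. Smad4, the common partner of SMAD2 and SMAD3, had 142 and 98.5 CPM in Ctrl and 93.2 and 66.6 CPM in KO (log2 fold change −0.59, SE 0.28). Acvr2b, a type II activin receptor gene, had 29.4 and 24.1 CPM in Ctrl and 16.4 and 14.9 CPM in KO (−0.77, SE 0.41). At all 3 both KO libraries lay below both Ctrl libraries.

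On the higher side, Furin, whose protease cuts the TGF-β1 precursor, had 220 and 261 CPM in Ctrl and 344 and 304 CPM in KO (log2 fold change 0.43, SE 0.22). Smad6, an inhibitory SMAD gene, had 14.9 and 21.1 CPM in Ctrl and 22.0 and 36.7 CPM in KO (0.70, SE 0.42). Foxp3, the lineage factor that TGF-β induces, had 255 and 300 CPM in Ctrl and 296 and 449 CPM in KO (0.42, SE 0.26). The groups overlapped for Foxp3 and not for Furin and Smad6.

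By CPM summed over the window, not per length, Runx1 (951 CPM on average), Pmepa1 (444 CPM) and Foxp3 (325 CPM) were the highest of the list. Pmepa1, a target that dampens SMAD signalling, had 390 and 403 CPM in Ctrl and 487 and 497 CPM in KO, a log2 fold change of 0.31 (SE 0.20). By role, 7 of 10 ligand and activation genes, 4 of 10 further receptors, 1 of 5 further SMAD genes, 9 of 14 regulators and 9 of 10 T cell targets had a higher KO mean. These are counts of direction only, of which 0 rest on a called locus. The roles also differed in level, with a median of 2.28 CPM per kb for the T cell targets and 0.307 CPM per kb for the further receptors. Over all loci the direction moved with level, as described above, and the part of level in these counts was not tested.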

How the data were processed

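The authors trimmed the reads, aligned them to mm10 with Bowtie2, removed duplicates, used MACS2 with IgG as the control to call peaks and joined the sets with bedtools, per the methods and the submitters' processing notes, with no version given. The deposited values were raw counts per merged peak for 4 libraries, not normalized. Because peaks were called on the compared libraries, the peak set depends on them.

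Peaks were assigned to genes of GENCODE M21 basic (protein coding, span extended by 20 kb; promoter peaks within 3 kb of a start site) and counts were summed per locus, per promoter and over the other peaks, so a peak may enter several genes. Features reaching 10 counts in 2 or more libraries were tested (16106 loci, 11562 promoters, 15282 sets of other peaks, 74550 peaks) with edgeR 4.0.16 in R 4.3.3 (quasi-likelihood test, TMM factors of the peak table, no covariate, Benjamini-Hochberg over all features of a kind), and with DESeq2 1.42.0 as an alternative. For single peaks edgeR estimated infinite prior degrees of freedom, so the spread came from the trend alone. CPM are counts over the TMM-scaled total in tested peaks.

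The members, the wider list and the markers were chosen with earlier results of these data known. Named peaks were the highest of each window and those with an unadjusted p under 0.05 whose KO libraries lay beyond both Ctrl libraries; of the wider list, the 3 smallest p in each direction and the 3 highest levels were named. Sequences were read with samtools 1.23.1 from GRCm38.p6 or the RefSeq promoter windows. Alternatives were other scalings, count minimums, windows, promoter distances, a robust fit, halved counts, a replicate block and leaving out each library.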

Additional observations from a re-analysis of the deposited data

How the results depend on the processing

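The number of member loci, promoters and other peak sets passing an adjusted p of 0.05 was 0 in every alternative run. Of 160 locus values (10 members under 16 alternatives), 143 kept their direction and their side of the threshold and 17 reversed, none of them past the threshold in either direction. With a loess offset on abundance the log2 fold change was −0.0022 for Tgfb1, 0.0095 for Itgb8, −0.15 for Tgfbr2, −0.14 for Smad3, −0.029 for Smad7 and −0.091 for Ski. With no count minimum Itgb8 was at 0.0029. With the span extended 50 kb Tgfbr1 was at 0.21, and with no extension Skil was at −0.012. The latter 2 settings change which peaks the window holds. Leaving out 1 library at a time gave ranges of −0.064 to 0.40 for Tgfb1, −0.22 to 0.54 for Lrrc32, −0.65 to 0.53 for Itgb8, −0.0052 to 0.13 for Tgfbr2, −0.20 to 0.34 for Smad3 and −0.18 to 0.43 for Ski. KO 2 set the lower end for Tgfb1, Lrrc32, Smad3 and Ski. The members' median of 0.12 became 0.056 with halved counts, −0.060 with the loess offset and 0.063 with total counts as library size, and ranged from −0.12 to 0.10 when 1 library was left out. The causes were not tested.

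Libraries of the 2 genotypes share the numbers 1 and 2, and the methods call Ctrl and KO mice littermates, but no source says that equal numbers mark the same litter or day, and there are only 2 pairs. Same-numbered libraries deviated together over the loci (r = 0.537 across 16106 loci, which are not independent). With the replicate number as a block, edgeR called 0 member loci where it called 1632 of all 16106 loci. It called 0 member sets of other peaks where it called 1520 of all 15282. Of the 202 member peaks it called 1, the Itgb8 3′ flank peak (adjusted p 0.0331), and 211 peaks in all against 1 without the block. At an unadjusted p under 0.05 the block fit had 3 member loci (Tgfb1, Lrrc32 and Ski) and 17 member peaks. The shares of all loci and of all peaks at that limit were not counted, so these counts have no background beside them. That fit had 1 residual degree of freedom, with infinite prior degrees of freedom for loci and single peaks and 48.6 for the sets of other peaks. Depth limits single peaks most, since many hold fewer than 50 counts, and counting both mates of a pair, which halving the counts stands for, would leave fewer fragments behind each value.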
